A study of Homo sapiens with 12 samples.

Results

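The HOX genes of clusters A, B, C and D were examined in Rh30 cells with and without knockdown of PAX3-FKHR. All gene probes whose array name was HOXA, HOXB, HOXC or HOXD followed only by a number from 1 to 13 were taken, which gave 39 genes and 52 probes of the 30238 gene names and 41000 probes on the array. HOXA had 11 genes, HOXB 10, HOXC 9 and HOXD 9. The choice used names only and no measured value. Each gene was represented by the brightest of its probes, and 28 of the 39 genes had a single probe.

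Rh30 is an established line of alveolar rhabdomyosarcoma, a childhood tumor with skeletal muscle features, and it carries the fusion transcription factor PAX3-FKHR (PAX3 joined to FKHR, now called FOXO1). KD1 was a stable clone with a retroviral (pSUPER.retro.puro) short hairpin RNA against PAX3-FKHR, CON was a stable clone with a non-targeting hairpin in the same vector, and WT was the parental Rh30 culture, which had no vector. The clones were kept in puromycin at 1 µg/mL, and RNA was taken 24 h after plating. KD1 and CON were each 1 clone, so a difference between clones and a difference due to the hairpin cannot be told apart. RNA from each culture was compared directly with RNA from the other cultures on 12 two-colour arrays, with 2 replicates per comparison and 2 arrays of opposite dye (a dye swap) per replicate. Each of the 6 RNA extracts was therefore on 4 arrays, and KD1 vs CON and KD1 vs WT shared the KD1 extracts. The arrays of KD1 replicate 1 lay on slide 1 and those of KD1 replicate 2 on slide 3, so replicate and slide cannot be told apart in either KD1 comparison, and all WT vs CON arrays lay on slide 2. These were bulk samples, in which fewer cells of a type and less RNA per cell cannot be told apart.

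HOX genes encode homeodomain transcription factors that give cells their position along the body axis. In each cluster the genes stand in the order in which they are used from head to tail, and genes at the same position of different clusters (paralogs) resemble each other most. HOX proteins bind DNA together with TALE cofactors of the PBX and MEIS families, and their clusters are kept silent by Polycomb proteins and opened by MLL and CDX proteins. Several HOX genes are known for roles in limb and trunk patterning and for misexpression in tumors.

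Because paralogs share the homeobox, probes that lie in it show how alike these genes are on the array. The 3 probes below held the homeobox stretch matching TGGTTNCANAAN, which is in capitals, and each is 60 bases written 5′ to 3′. The probe named HOXC10 (A_24_P218805) was placed by the array files at chr12:52669367-52669426, the probe named HOXA10 (A_24_P914411) at chr12:52709820-52709879 and the probe named HOXB6 (A_24_P933151) at chr17:44028861-44028920, all on NCBI36. The A_24_P914411 position is in the HOXC cluster and not in HOXA.
A_24_P218805: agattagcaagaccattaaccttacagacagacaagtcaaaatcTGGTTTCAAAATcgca
A_24_P914411: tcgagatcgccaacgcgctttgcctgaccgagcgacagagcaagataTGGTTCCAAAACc
A_24_P933151: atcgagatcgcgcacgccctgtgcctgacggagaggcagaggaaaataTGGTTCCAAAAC
Aligned without gaps on the capitals, A_24_P914411 and the HOXB6 probe were identical at 50 of 59 bases (84.7%). The HOXC10 probe matched A_24_P914411 at 37 of 57 bases (64.9%) and the HOXB6 probe at 34 of 56 (60.7%). A_24_P914411 was not the brightest HOXA10 probe and gave no value for HOXA10 below. How far RNA of one paralog bound a probe of another was not tested.

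The promoters of 3 genes that read low in KD1 are shown with the core that homeodomains are known to bind. The windows are the 250 bases before the gene start in RefSeq (GRCh38.p14), at chr7:27102684-27102933 on the minus strand for HOXA2, chr7:27165538-27165787 on the minus strand for HOXA9 and chr2:176188418-176188667 on the plus strand for HOXD1. Capitals mark ATTA or its complement TAAT, searched on both strands, where neighbouring matches may overlap.
HOXA2: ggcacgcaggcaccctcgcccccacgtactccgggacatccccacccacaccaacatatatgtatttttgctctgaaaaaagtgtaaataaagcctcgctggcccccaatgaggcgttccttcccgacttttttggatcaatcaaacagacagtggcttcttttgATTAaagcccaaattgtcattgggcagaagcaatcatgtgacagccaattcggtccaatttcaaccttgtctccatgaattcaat
HOXA9: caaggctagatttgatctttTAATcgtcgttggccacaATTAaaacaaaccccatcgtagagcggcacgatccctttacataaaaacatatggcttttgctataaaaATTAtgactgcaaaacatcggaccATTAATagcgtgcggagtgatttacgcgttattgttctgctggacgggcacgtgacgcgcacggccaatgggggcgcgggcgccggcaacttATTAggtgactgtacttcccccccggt
HOXD1: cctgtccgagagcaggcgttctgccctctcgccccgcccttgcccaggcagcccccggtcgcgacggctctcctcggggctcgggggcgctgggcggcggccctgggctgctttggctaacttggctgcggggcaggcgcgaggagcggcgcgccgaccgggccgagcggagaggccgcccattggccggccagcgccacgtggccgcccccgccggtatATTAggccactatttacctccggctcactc
HOXA9 had 6 matches with a GC content of 48.8%, HOXA2 had 1 match with 47.2% and HOXD1 had 1 match with 74.8%. A match was present in 16660 of all 35116 promoter windows of this length (47.4%) and in 20 of the 27 windows of the 20 HOX genes in that table. HOXB13, HOXB9 and HOXC13 had no entry in it.

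One WT extract stood apart in genes of other cell types (log2 ratios, first-named culture over second). EPCAM, an epithelial adhesion gene, was detected only on the 4 arrays of WT replicate 2, and its WT vs CON ratio was 0.24 in replicate 1 and 5.43 in replicate 2. Of the 7 markers of epithelial, blood and endothelial cells, CDH1 and KRT19 were also higher there (2.21 and 3.0 in WT vs CON replicate 2), PTPRC was detected on no array, CD3E and PECAM1 on every array and CDH5 on some arrays of each culture, and the summed log2 level was 10.51 in this extract and 9.48 to 10.2 in the other 5. The muscle markers MYOD1, MYOG, DES, CDH15, MYH3, MYL4, FGFR4 and PAX3 were all detected on every array. MYOG, a muscle differentiation factor (-1.96 and -1.49, limma adjusted p = 0.0499), and MYL4, a myosin light chain (-2.17 and -1.63, 0.046), were lower in WT than in CON. These were the 2 of 8 muscle markers called there, beside 0.428% of all probes. The others had fitted WT vs CON ratios of -0.04 (MYOD1), -0.25 (DES), 0.19 (CDH15), -0.42 (MYH3), -0.04 (FGFR4) and 0.00 (PAX3). The arrays hold no probe for the fusion junction. Probes for PAX3 and FOXO1 read -0.39 and -0.46 and -0.26 and -0.58 in the KD1 vs CON replicates (limma adjusted p = 0.357 and 0.451). Both can measure the unrearranged genes, and whether either probe lies in the part kept in the fusion was not tested.

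Detection was read first, since levels of different probes cannot be compared. A gene was called detected on an array when Feature Extraction, the scanner software, flagged its spot well above background in the channel of the culture, which gives 0 to 8 arrays per culture. Of the 39 HOX genes, 21 (53.8%) were detected on all 8 arrays of all 3 cultures, beside 57.6% of all genes. In HOXB 9 of 10 genes were detected in this way, in HOXA 7 of 11, in HOXD 4 of 9 and in HOXC 1 of 9. On no array of any culture were HOXA11, HOXC4, HOXC8, HOXC12, HOXD3, HOXD4 and HOXD12 detected, 7 genes (17.9%) beside 21.0% of all genes.

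HOXB2 to HOXB9 and HOXB13 were on all arrays, and HOXB1 was detected on 1 KD1 array alone. In HOXA the genes on all arrays were HOXA2, HOXA3, HOXA4, HOXA5, HOXA7, HOXA10 and HOXA13. In HOXD they were HOXD8, HOXD9, HOXD10 and HOXD11, and in HOXC the single gene was HOXC9. Probe A_24_P914411, named HOXA10 but placed in HOXC, was also detected on all 8 arrays of each culture and is not in the HOXC count. By position, 4 of 8 anterior genes (positions 1 to 3), 9 of 15 central genes (4 to 8) and 8 of 16 posterior genes (9 to 13) were on all arrays. Both members of paralog group 2 and both of group 7 were detected throughout, and neither member of group 12 was detected at all.

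**Figure D1:**
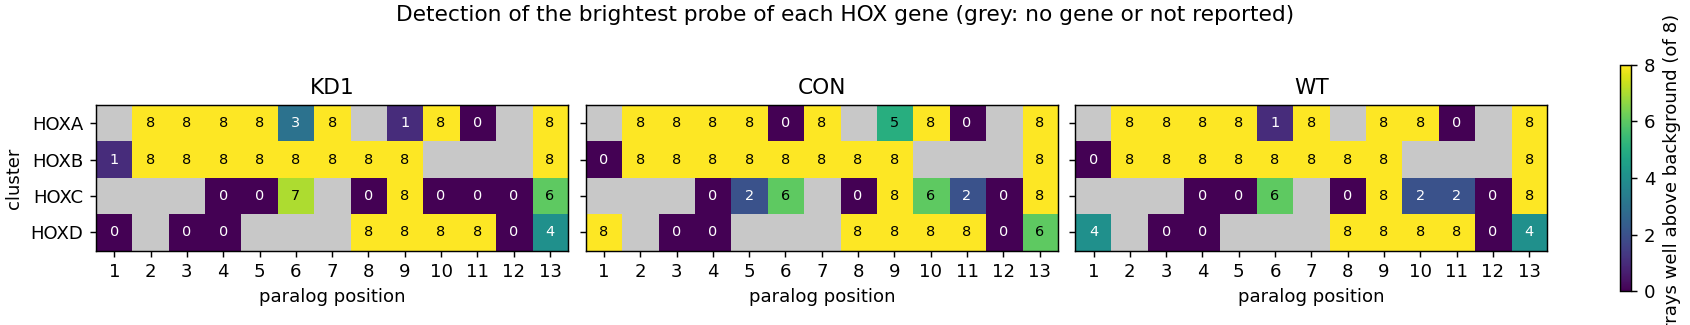
Number of arrays, of 8 per culture, on which the brightest probe of each HOX gene was well above background, by cluster (vertical axis) and paralog position (horizontal axis), with 1 panel per culture and grey where no gene exists or its value is not reported. HOXB2 to HOXB9 stand at 8 in every culture, and HOXC holds a single gene at 8 in all of them, HOXC9.

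A few genes were detected unequally between cultures. HOXD1, an anterior gene, was well above background on 0 of 8 KD1 arrays, 8 of 8 CON arrays and 4 of 8 WT arrays. HOXA9, a posterior gene best known from blood stem cells and leukemia, was detected on 1 KD1 array, 5 CON arrays and 8 WT arrays. HOXC10 was detected on 0 KD1, 6 CON and 2 WT arrays, and HOXC13, needed for hair and nails, on 6, 8 and 8. HOXC11 gave 0, 2 and 2 arrays, HOXC5 0, 2 and 0, HOXA6 3, 0 and 1, HOXC6 7, 6 and 6, and HOXD13, a digit patterning gene, 4, 6 and 4.

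Ratios between cultures were tested for probes whose signal exceeded the negative controls (their 99th percentile) in Cy3 or Cy5, or both, on all 4 arrays, with limma on the levels of the 6 extracts and Benjamini-Hochberg adjustment over all probes tested. The filter left 21 of the 39 HOX genes in KD1 vs CON, 22 where KD1 was set against WT, and 24 for WT vs CON. It was strictest in KD1 vs CON, where that percentile was 27.7 to 40.6 intensity units in Cy3 on the replicate 1 arrays, beside 1.81 to 20.4 on all other arrays. All ratios below are log2 values with the first-named culture over the second, so that -1 is a level 2-fold lower in the first, and a ratio given as against CON or against WT is that of KD1.

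A single HOX gene passed the adjusted threshold of 0.05 in any comparison, HOXB13, which was lower in KD1 than in WT. In KD1 vs WT, 1 of 22 HOX genes was called, beside 0.406% of all probes tested. In KD1 vs CON limma called 0 of 21 HOX genes, beside 0.524% of probes, and 8 of the 21 had an unadjusted p under 0.05, beside 15.9% of probes. KD1 vs WT also had 8 genes under that unadjusted threshold, beside 16.6% of probes. In WT vs CON limma called 0 of 24, beside 0.428% of probes, and 1 gene, HOXB8, had an unadjusted p under 0.05, beside 17.0%. Mean ratios reached 2-fold for 4 of the 21 genes of KD1 vs CON (4.34% of all genes tested), for 3 of 22 against WT (5.12%) and for 0 of 24 between WT and CON (4.9%). The median fitted ratio over the tested HOX genes was -0.17 for KD1 vs CON (all probes -0.02), -0.05 for KD1 vs WT (0.01) and, for WT vs CON, -0.01 (-0.03).

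**Figure D2:**
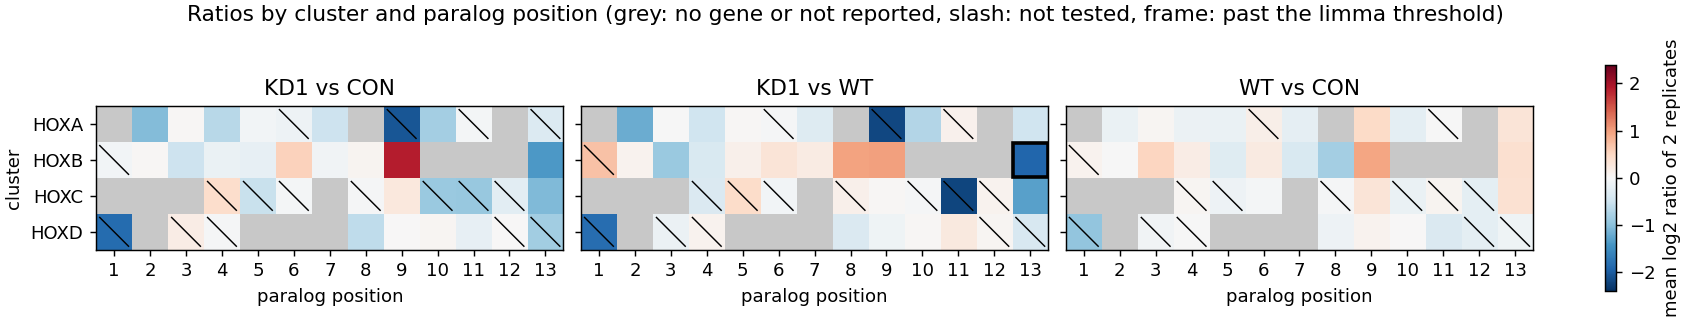
Mean log2 ratio of the 2 replicates for the brightest probe of each HOX gene, by cluster (vertical axis) and paralog position (horizontal axis), with 1 panel per comparison, grey for no gene or a value not reported, a slash for a gene not tested and a frame for a gene past the limma threshold. The frame marks HOXB13 in KD1 vs WT, and the tested HOXA genes of both KD1 panels lie mostly below 0.

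HOXB13 is the last gene of its cluster, known from the prostate and the distal gut. Its probe (A_24_P365015, chr17:44157143-44157202, NCBI36) read -1.36, -1.62, -1.43 and -1.13 on the KD1 vs CON arrays and -2.35, -2.01, -1.66 and -1.56 on the KD1 vs WT arrays. On the WT vs CON arrays it read 0.44, 0.56, 0.09 and 0.42. KD1 was thus below the other culture on each of its 8 arrays, which were repeats of the same 2 KD1 extracts. The replicate mean was -1.89 ± 0.41 (SD, n = 2) in KD1 vs WT, with a fitted ratio of -1.85 (SE 0.20, limma adjusted p = 0.041). In KD1 vs CON it was -1.39 ± 0.15 (SD, n = 2) with a fitted ratio of -1.43 (SE 0.20), which missed the threshold (limma adjusted p = 0.069). WT vs CON gave 0.38 ± 0.17 (SD, n = 2, limma adjusted p = 0.365). A second HOXB13 probe (A_23_P4212) read -1.55 and -1.03 in the KD1 vs WT replicates (limma adjusted p = 0.0992) and -1.54 and -0.92 in KD1 vs CON. The call in KD1 vs WT was lost with normexp background correction (adjusted p = 0.189), median centring (0.126), a filter on both channels (0.081), no filter (0.067) and the mean of both probes (0.059). Without WT replicate 2, which left 1 WT extract, the fitted HOXB13 ratio against WT was -2.05.

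HOXA2, which patterns the hindbrain and the second branchial arch, was the other tested HOX gene below 0 on all 8 KD1 arrays with a mean of at least 2-fold against both cultures. Its probe (A_24_P200854, chr7:27106875-27106934, NCBI36) read -1.45, -1.55, -0.60 and -0.59 against CON and -1.34, -1.16, -1.38 and -0.88 against WT. The 4 WT vs CON arrays lay close to 0, at -0.15, -0.08, -0.37 and -0.06. KD1 was below the other culture on each of its 8 arrays, but by less in replicate 2 of KD1 vs CON. The means were -1.05 ± 0.64 and -1.19 ± 0.09 (SD, n = 2 each), and neither passed (limma adjusted p = 0.107 and 0.130).

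Fold criteria were adapted from the study's methods. A gene sets a culture apart when its mean ratio is at least 2-fold in the same direction against both other cultures, when that direction holds on every array, and when its signal is above the negative controls in a channel of every array. The methods do not state on how many arrays the signal had to pass. With no signal filter HOXA9 and HOXD1 were added, which gave 4 genes, and no share of all genes is given for that setting. HOXB13 and HOXA2 set KD1 apart, both lower, which is 2 of the 21 HOX genes that passed the filter, beside 1.53% of all genes. With CON in the place of KD1 the count was 0 of 21 (1.38% of all genes) and with WT it was 0 of 22 (1.36%).

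**Figure D3:**
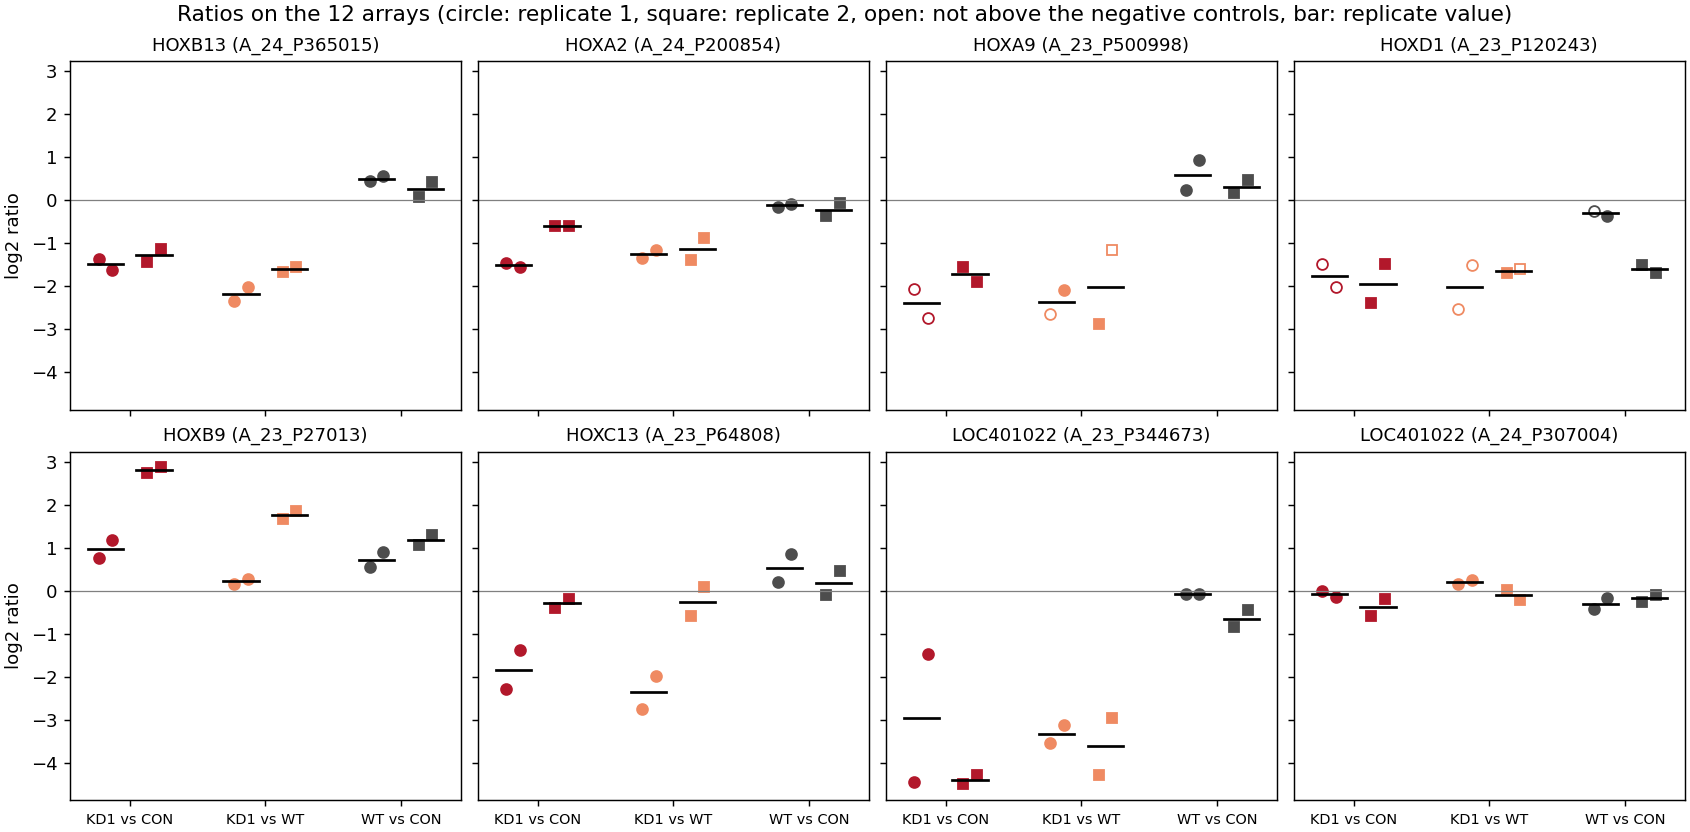
Log2 ratios (vertical axis) of 6 HOX genes and both LOC401022 probes on the 12 arrays, by comparison (horizontal axis), with circles for replicate 1, squares for replicate 2, open symbols for arrays not above the negative controls and bars for the replicate values. KD1 was below the other culture on every KD1 array for HOXB13 and HOXA2, and the replicates of HOXB9 and HOXC13 lie far apart.

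Most tested HOXA genes lay below 0 in both KD1 comparisons. Of 6 tested in KD1 vs CON, 4 were below 0 in both replicates (HOXA2, HOXA4, HOXA7 and HOXA10), beside 37.4% of all genes, with a cluster median of -0.59. Of 7 tested in KD1 vs WT, 5 were (those 4 and HOXA13), beside 27.7% of all genes, with a median of -0.50. None of them was called by limma, and 4 HOXA genes in each comparison had an unadjusted p under 0.05, beside 15.9% of all probes against CON and 16.6% against WT. HOXA10, a regulator of the uterus and lumbar spine, read -0.90 and -0.74 against CON and -0.65 and -0.76 against WT (limma adjusted p = 0.138 and 0.194). HOXA4 read -0.62 and -0.73, then -0.30 and -0.66 (adjusted p = 0.200 and 0.276 by limma). HOXA7 read -0.49 and -0.52, then -0.40 and -0.22, where the last value averages dye-swap arrays of opposite sign (0.70 and -1.15). HOXA13, a gene of the digits and genital tract, read -0.55 and -0.42 in KD1 vs WT (limma adjusted p = 0.237). By their brightest probes HOXA3 and HOXA5, a lung patterning gene, did not share this. HOXA3 read 0.01 and 0.05 in KD1 vs CON, and HOXA5 read -0.30 and 0.15. A second HOXA3 probe (A_23_P501538) disagreed with the first, at -0.54 and -0.39 against CON. In WT vs CON the HOXA median was -0.10 over 8 genes.

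HOXA9 and HOXD1 had the lowest mean ratios of the detected HOX genes in KD1 vs CON but could not be tested there, and they were chosen for description after their values were seen. HOXA9 (A_23_P500998, chr7:27169113-27169172, NCBI36) read -2.39 and -1.72 against CON and -2.36 and -2.01 against WT, and it passed the filter on 2 of 4 arrays in each. HOXD1 (A_23_P120243, chr2:176763618-176763677, NCBI36) read -1.75 and -1.94 against CON and -2.02 and -1.64 against WT. Between WT and CON it read -0.30 in replicate 1 and -1.59 in replicate 2, the replicate with the WT extract that stood apart. KD1 was at or near background for both genes, so these ratios rest on dim spots. Since no KD1 array detected HOXD1, only a bound can be given, and on average KD1 was at least 2.10-fold below CON and at least 1.27-fold below WT. The log2 levels of the WT extracts were 4.47 in replicate 1 and 3.84 in replicate 2, the second close to the KD1 floor of 3.82. The bound takes, on each array, the higher of the probe's own signal and the lowest signal of any probe well above background, and it is open to dye bias. For HOXC10, also chosen after its values were seen, the bound was at least 1.43-fold below CON. Against WT it read -0.16 and 0.11 in the replicates, with a bound of only 1.01-fold. The second HOXC10 probe (A_24_P218805) was detected on no array and read -0.29 and 0.16 against CON.

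HOXB showed no common direction. Its median over 9 tested genes was -0.12 for KD1 vs CON, 0.11 against WT and 0.19 between WT and CON. HOXB9, which patterns the thoracic ribs, had the highest mean ratio, and its probe (A_23_P27013, chr17:44053614-44053673, NCBI36) was above 0 on all 12 arrays. It read 0.97 and 2.81 in the KD1 vs CON replicates (1.89 ± 1.30, SD, n = 2, limma adjusted p = 0.160) and 0.22 and 1.76 in KD1 vs WT (0.99 ± 1.09, SD, n = 2, limma adjusted p = 0.354). WT vs CON read 0.72 and 1.18, so HOXB9 was lowest in CON and the spread between replicates was larger than the difference between KD1 and WT. HOXB3 read -0.90 and -0.10 against CON and -1.25 and -0.52 against WT. Its other probes differed against WT, at -1.13 and -0.29 (A_23_P316511) and 0.32 and -0.25 (A_23_P100872, detected on 6 arrays of each culture). HOXB6 read 0.39 and 0.71, then 0.34 and 0.27. HOXB5 changed sign between replicates, at -1.01 and 0.62, then -0.56 and 0.78. HOXB8 read -0.24 and -1.38 in WT vs CON (limma adjusted p = 0.275), and the replicate with the lower value was the one that held WT replicate 2. The part of that extract's epithelial genes in this value was not tested. HOXB2, HOXB4 and HOXB7 had mean ratios from -0.37 to 0.19 in all comparisons.

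HOXC13 (A_23_P64808, chr12:52626301-52626360, NCBI36) differed between replicates. It read -1.84 and -0.29 against CON (-1.06 ± 1.1, SD, n = 2, limma adjusted p = 0.380) and -2.36 and -0.25 against WT (-1.31 ± 1.49, SD, n = 2, limma adjusted p = 0.264). The difference between its replicates was larger than either mean. HOXC9 read 0.18 and 0.34 against CON and 0.08 and -0.04 against WT.

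The 4 HOXD genes on all arrays lay near 0, with medians of -0.09 against CON, -0.03 against WT and -0.08 between WT and CON. HOXD10, a limb gene, had replicate values of 0.06 and 0.03 against CON and 0.07 and -0.01 against WT. HOXD9 read -0.09 and 0.10, then -0.19 and -0.02, and HOXD11, a forearm patterning gene, read -0.25 and -0.14, then 0.39 and 0.06. HOXD8 was the exception, at -0.53 and -0.70 against CON and -0.40 and -0.29 against WT (limma adjusted p = 0.224 and 0.324).

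**Figure D4:**
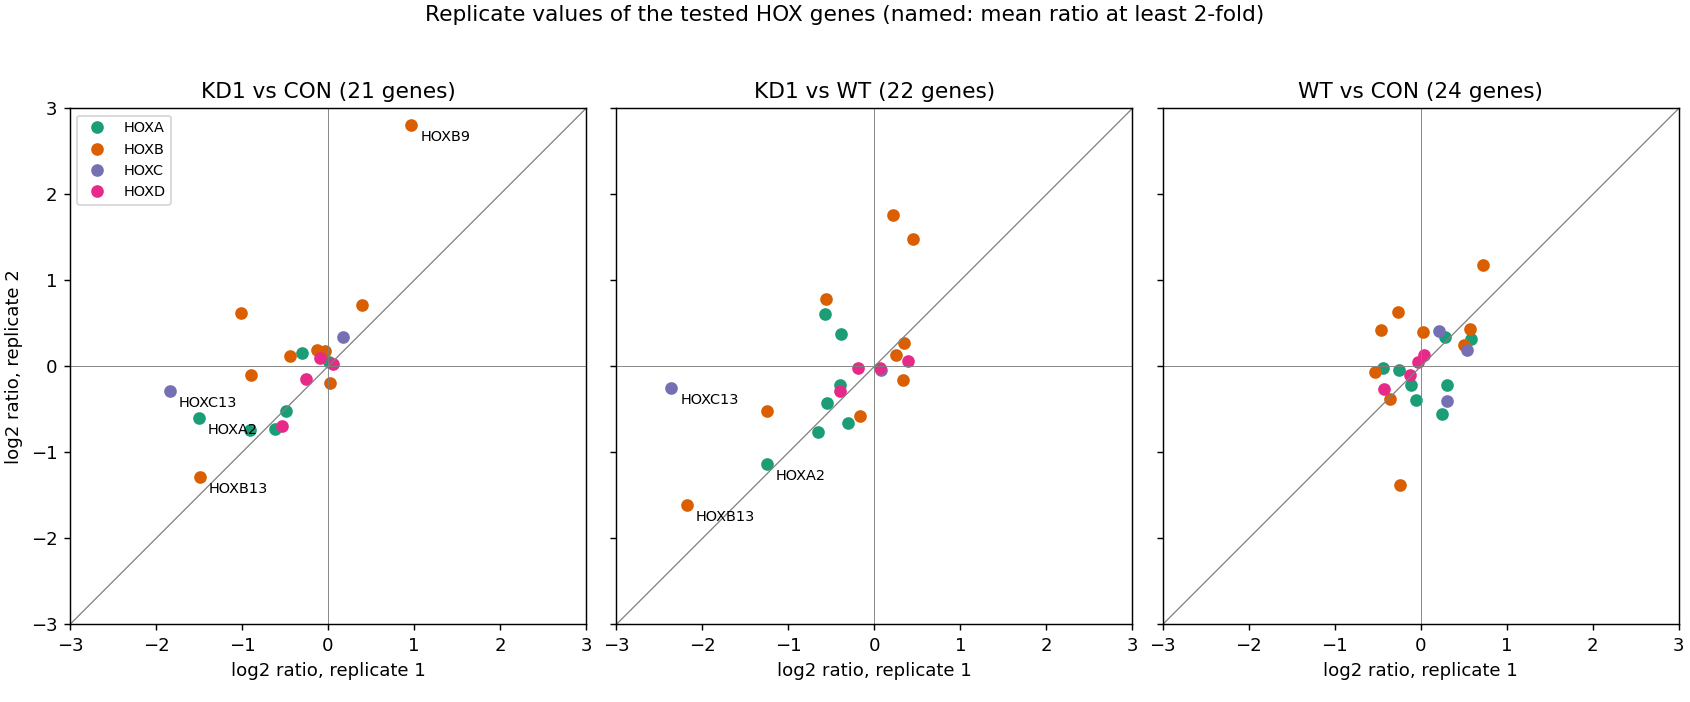
Log2 ratio of replicate 1 (horizontal axis) against replicate 2 (vertical axis) for the tested HOX genes, colored by cluster, with 1 panel per comparison, the diagonal for equal replicates and names where the mean ratio was at least 2-fold. HOXB13 lies near the diagonal in both KD1 panels, while HOXB9 (0.97 and 2.81) and HOXC13 (-1.84 and -0.29) lie away from it in KD1 vs CON.

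Transcripts inside and around the clusters were read in the same way. LOC401022, matched by its gene ID to HAGLR, a noncoding RNA transcribed antisense within HOXD, had 2 probes that disagreed, printed here 5′ to 3′ to show which stretches they measure. The first lay at chr2:176746482-176746541 and the second spanned chr2:176750433-176750708 (NCBI36).
A_23_P344673: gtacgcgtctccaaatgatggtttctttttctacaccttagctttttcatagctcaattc
A_24_P307004: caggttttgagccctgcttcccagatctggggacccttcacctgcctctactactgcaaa
A_23_P344673 read -4.44, -1.46, -4.49 and -4.29 against CON and -3.54, -3.13, -4.28 and -2.95 against WT, and was detected on 1 KD1 array and on all 8 arrays of CON and of WT. Its WT vs CON arrays read -0.08, -0.08, -0.85 and -0.45. KD1 was below the other culture on each of its 8 arrays. The probe passed the filter through CON and WT, since KD1 was near background. Its fitted ratios are therefore not exact sizes, and its adjusted p-values rest on KD1 signals near background. Over the alternative fits the log2 ratio ran from -4.10 to -0.54 against CON and from -3.51 to -0.48 against WT. By this probe LOC401022 was lower in KD1 than in CON (fitted ratio -3.73, SE 0.31, limma adjusted p = 0.015) and than in WT (-3.42, limma adjusted p = 0.025). With each KD1 array raised to the lowest signal of any probe well above background where it was lower, KD1 was at least 7.04-fold below CON and at least 4.68-fold below WT. A_24_P307004, detected on all 8 arrays of each culture, read -0.08 and -0.38 against CON and 0.21 and -0.11 against WT. The first probe lay 449 bases from the HOXD3 probe and 17076 bases from the HOXD1 probe, and the second lay 12909 bases from the HOXD1 probe. RefSeq lists 4 HAGLR starts, of which one lies 96 bases before the HOXD1 start on the opposite strand. The calls for A_23_P344673 were lost with normexp (adjusted p = 0.146 and 0.189) and with median centring (0.143 and 0.299), and in KD1 vs WT also with the mean of the probes (0.066) and without WT replicate 2 (0.055).

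Within 1 Mb of the outer HOX probes lay 232 other probes. Limma called 1 of 131 tested against CON and 2 of 148 against WT, and the medians were 0.01 and -0.02. These counts stand beside 0.524% and 0.406% of all probes. In WT vs CON it called 0 of 156, beside 0.428%. An unadjusted p under 0.05 was reached by 10 of the 131 (15.9% of all probes), 22 of the 148 (16.6%) and, for WT vs CON, 17 of the 156 (17.0%). A_23_P344673 was among the calls of both KD1 comparisons, with KD1 signals near background. The further call was the transcript BM692484 (A_24_P466590, chr17:44635644-44635703, NCBI36), which read -2.46 and -2.49 in KD1 vs WT (fitted ratio -2.54, SE 0.29, limma adjusted p = 0.045). Outside the HOXA cluster the median was -0.27 for KD1 vs CON and -0.00 against WT, beside -0.59 and -0.50 for the HOXA genes themselves.

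**Figure D5:**
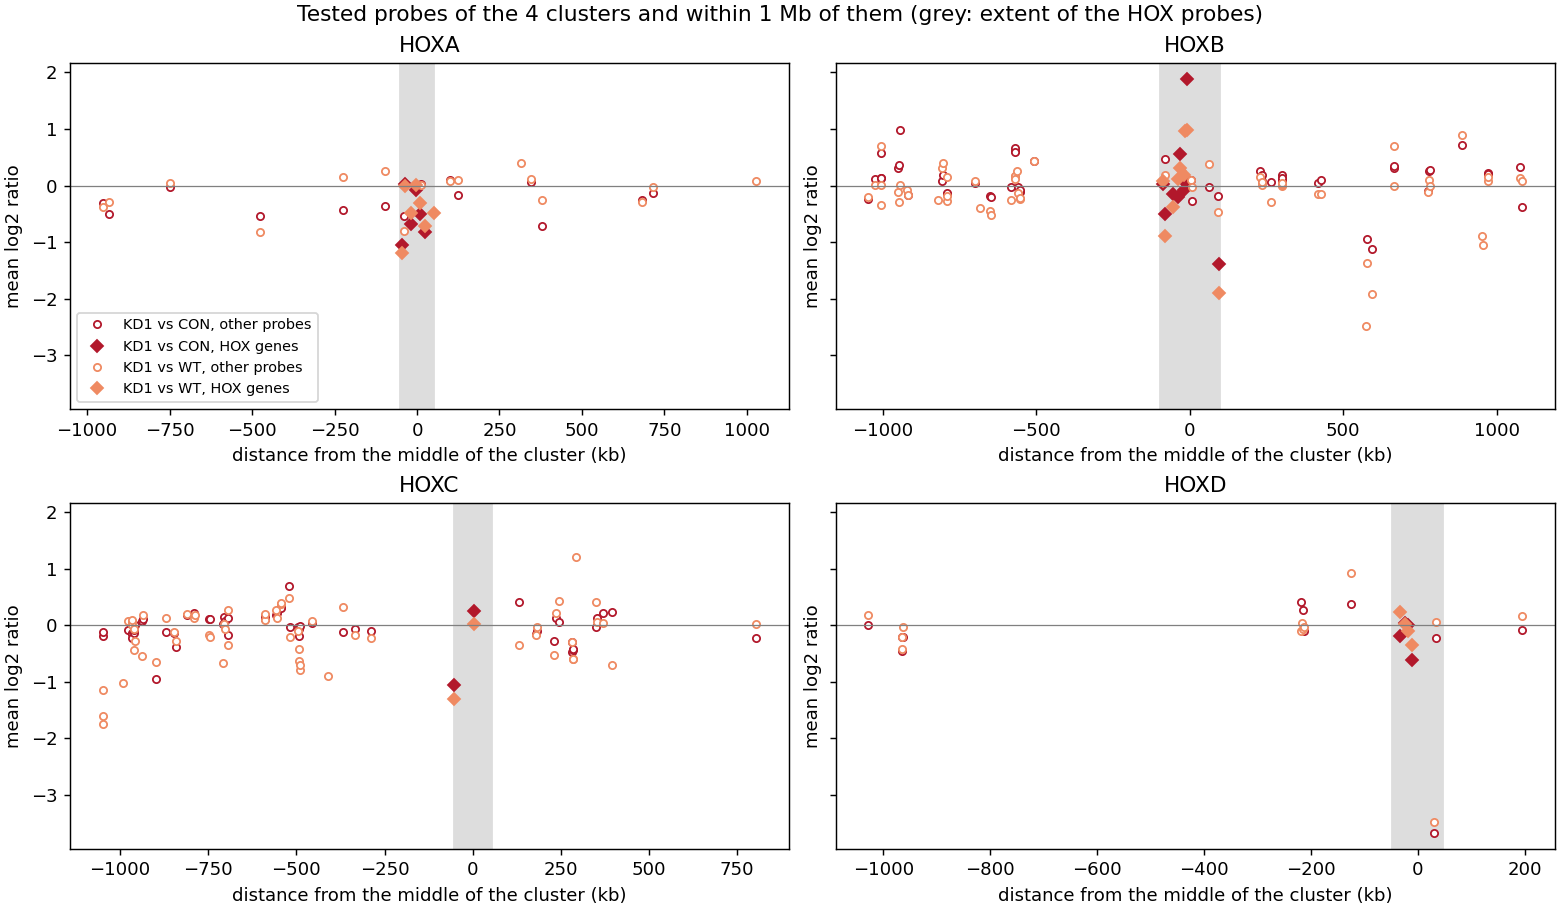
Mean log2 ratio (vertical axis) of tested probes against distance in kb from the middle of each cluster (horizontal axis), with filled diamonds for HOX genes, open circles for other probes and grey for the extent of the HOX probes. The lowest points in HOXD are the LOC401022 probe A_23_P344673, and HOXB13 lies at the edge of HOXB at -1.39 and -1.89.

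No tested gene of the 3 lists that act with or on the clusters was called. Of all probes, limma called 0.524% against CON, 0.406% against WT and 0.428% between WT and CON. With lists this short, a count of 0 does not set these genes apart from the whole array. Of 9 TALE cofactors 8 were tested, with medians of -0.14 for KD1 vs CON and -0.22 against WT. Of 13 activators of HOX transcription (MLL complex, H3K27 demethylases, CDX and retinoic acid receptors) 8 were tested in both KD1 comparisons, with medians of 0.10 and 0.10. Of 15 Polycomb genes 14 were tested, with medians of -0.01 and -0.03. At an unadjusted p under 0.05 limma gave 2 TALE cofactors, 0 activators and 1 Polycomb gene against CON (15.9% of all probes). The counts were 0, 1 and 3 against WT (16.6%) and 2, 2 and 1 between WT and CON (17.0%).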

How the data were processed

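The deposited scanner files came from Agilent Feature Extraction 10.5.1.1 (submitters' processing notes), with probe positions on NCBI36. The authors' software gave processed signal intensity for Cy5 and Cy3, background-subtracted, detrended and dye-normalized by lowess within each array. The deposited files also held the log10 ratio of Cy5 over Cy3 per spot from the authors' software, with which the series table was compared. The deposited series table held log2 ratios of the same arrays and was used as an alternative. Log2 ratios of the processed signals were turned to KD1 vs CON, KD1 vs WT and WT vs CON, spots of a probe were averaged without outlier flags, and each dye-swap pair gave 1 replicate ratio. The 3 ratios of a replicate were solved by least squares for its extract levels, and the 6 levels were fitted with limma 3.58.1 (R 4.3.3), with culture and replicate as terms (2 residual degrees of freedom, eBayes, two-sided, Benjamini-Hochberg). Fold criteria and detection were computed with Python 3.11.15, numpy 2.4.6 and pandas 2.3.3. The fit was tested on simulated data. Feature Extraction flagged 71.1 to 73.6% of gene spots well above background in Cy3 and 64.4 to 67.8% in Cy5, and 0 spots were saturated. With 12 arrays and 2 replicates, the number of arrays limits the precision, and p-values measure only the spread between these samples. Values in the text were given for genes past the limma threshold or the fold criteria, for tested genes at least 2-fold changed in mean ratio and for genes detected on all arrays of all cultures. HOXA9, HOXD1, HOXC10, HOXC11 and HOTAIR fall outside this rule and were chosen after their values were seen. The values of 1 HOX gene are not reported here, though it is in the counts. The members and lists were chosen with earlier results of these data known. Alternatives were normexp (offset 50) with loess, median centring, the series table, no filter, a filter on both channels, no replicate block, slide dye effects, 6 replicate ratios, the mean over probes, each replicate left out and, chosen after seeing the data, WT replicate 2 left out.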

Additional observations from a re-analysis of the deposited data

How the results depend on the processing

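The count of called HOX genes depended on the fit. In KD1 vs CON (0 called) it was 1 without the replicate block and 1 with 6 replicate ratios, in each case HOXB13. These fits called 0.633% and 1.28% of all probes, beside 0.524% in the main fit. The fit with slide dye effects took the 12 arrays singly, with a correlation of 0.65 between arrays of the same comparison and replicate. With that fit the count was 7 (HOXA2, HOXA4, HOXA10, HOXB6, HOXB9, HOXB13 and HOXD8), beside 19.7% of all probes called. In KD1 vs WT (1 called) it was 0 with normexp, which called 0 probes of the whole array. It was also 0 with median centring (0.112% of all probes called), the filter on both channels (0.0478%) and the mean over probes (0.431% of genes). With slide dye effects it was 7 (19.4% of all probes). With no filter the 1 call was HOXA9, beside 0.205% of all probes. WT vs CON stayed at 0 in all fits run. The fit without the replicate block changed no other count of HOX calls. It also used separate-channel levels normalized between arrays, so its counts cannot be credited to the block alone. Deviations of same-numbered extracts correlated at 0.53 (KD1 and CON), -0.03 (KD1 and WT) and 0.00 (CON and WT), so the numbers were not shown to pair the extracts.

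The fold criteria (2 genes for KD1) gave 0 with normexp, 1 with median centring (HOXB13), 4 with no filter (HOXA9 and HOXD1 added) and 2 to 3 with a replicate left out (HOXB13 and, higher, HOXB9 without replicate 1, so that HOXA2 was lost, and HOXA2, HOXB13 and HOXC13 without replicate 2). Without WT replicate 2 it gave 3 (HOXC13 added). For CON (0) the range was 0 to 2 (HOXB9 and HOXD1 without replicate 1), and for WT (0) it was 0 to 1 (HOXB8 without replicate 1). No share of all genes is given for these alternatives, so their counts do not set the HOX genes apart from the array. The median HOX ratio in KD1 vs CON (-0.17) turned sign, from -0.30 without replicate 2 to 0.03 without replicate 1. In KD1 vs WT (-0.05) it ranged from -0.34 to -0.10 with a replicate left out and was -0.23 without WT replicate 2. In WT vs CON (-0.01) it ranged from -0.0028 to 0.02, and was -0.15 with median centring, -0.049 with no filter and 0.083 without WT replicate 2. Among single genes 0 calls reversed. The cause of these shifts was not tested. Dim probes limit HOXC and the anterior HOXD genes most, since most were not tested.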

Other observations

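HOTAIR, a noncoding RNA of the HOXC cluster known to work with Polycomb proteins, was detected on 0 KD1, 1 CON and 2 WT arrays, and its probe read -2.20 and -2.08 against CON and -2.06 and -0.63 against WT. It was not tested and was chosen after its values were seen. HOXC11 read -1.20 and -0.60 against CON and -2.26 and -2.13 against WT with 0 KD1 arrays above background, and no fold is given. Probe A_24_P914411, named HOXA10 but placed in HOXC, read -0.20 and -0.05 against CON and -0.01 and 0.01 against WT, while the brightest HOXA10 probe read -0.90 and -0.74 and then -0.65 and -0.76.

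The WT extract of replicate 2 also stood apart in gut genes. AGR2, GPA33 and FABP1, chosen after their values were seen, had WT vs CON ratios of -0.85, -0.76 and 0.29 in replicate 1 and 4.92, 4.51 and 4.90 in replicate 2. Their summed log2 level was 9.14 in that extract and 4.13 to 4.62 in the other 5.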
